A study of Mus musculus with 4 samples.

Results

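The miRNAs described here are miR-21a, miR-146a, miR-146b and miR-155, which are often measured as readouts of inflammation. They were chosen by name, taking every arm with 1 of these 4 stems, and 7 arms were listed among 816 mouse miRNA names. These were both arms of miR-21a, miR-146a and miR-155 and the 5p arm of miR-146b. miR-146b-3p was listed for no library. The study sequenced small RNAs of prostate cells from wild-type male C57Bl/6 mice aged 10 weeks, with no treatment or transgene named in the labels. Cells were sorted as Sca-1 positive and lineage negative, with high CD49f for the 2 basal libraries and low CD49f for the 2 luminal libraries. Sca-1 marks progenitor-rich fractions, so "luminal" here stands for this gate alone. The labels do not say how many animals were pooled or whether libraries of a group came from different animals, so the p-values below measure only the spread between these libraries, which may be technical.

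A miRNA is cut from a hairpin that has a 5p and a 3p arm, and for most hairpins one arm is loaded into Argonaute while the other is degraded. The loaded arm pairs with messenger RNAs mainly through its seed, the bases that follow its first base. miR-146a and miR-155 are induced through NF-kB when Toll-like or cytokine receptors are engaged. miR-146a and miR-146b then repress Irak1 and Traf6, adaptors of the same receptors, and so act as a brake. miR-155 represses Socs1 and Inpp5d, both inhibitors of immune signalling, and is known from activated lymphocytes and macrophages. miR-21 is abundant in most cell types, rises in many carcinomas including prostate cancer, and represses Pdcd4.

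The sequences of the arms that carried nearly all reads, and of the opposite arm of miR-21a, are shown because the results turn on which arm was read and on how alike the miR-146 members are. Capitals mark the seed, bases 2 to 8, and the sequences are those of RefSeq on GRCm38.
miR-21a-5p: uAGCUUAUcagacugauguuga
miR-21a-3p: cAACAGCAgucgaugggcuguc
miR-146a-5p: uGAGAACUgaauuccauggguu
miR-146b-5p: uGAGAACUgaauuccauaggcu
miR-155-5p: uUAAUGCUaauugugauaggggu
miR-146a-5p and miR-146b-5p have the same seed and are identical at 20 of 22 positions. Counted from the 5′ end of miR-146a-5p, the differences are G18A and U21C. A read that ends before the first of these matches both names, and the sources used here do not say to which name it then went. Each other arm shown had a seed held by no other of the 679 listed names that had a RefSeq sequence. miR-21b and miR-21c, which resemble miR-21a, were listed for no library.

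On GRCm38, the Mir21a hairpin spans bases 86584067 to 86584158 of chromosome 11, minus strand, inside an exon and untranslated region of Vmp1, a gene of autophagy, on the same strand. Mir146, which gives miR-146a, spans bases 43374397 to 43374461 of the same chromosome and strand, in no other annotated gene. Mir146b spans bases 46342762 to 46342870 of chromosome 19, plus strand, in an intron of Mfsd13a on the same strand. Mir155 spans bases 84714140 to 84714204 of chromosome 16, plus strand, in an exon of its host noncoding RNA Mir155hg. None of the 4 hairpins shares an annotated host gene with another.

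The libraries held 1501898 to 3278294 reads assigned to miRNAs, and names other than miRNAs took 29.5% to 62.4% of the listed reads. The 7 arms together took 0.659% of the miRNA reads in basal replicate 1, 0.274% in basal replicate 2, 0.439% in luminal replicate 1 and 0.771% in luminal replicate 2. Marker miRNAs went with the sort labels, since miR-205-5p, the basal marker, had 51995 and 80966 RPM in the basal pair but 6691 and 4608 in the luminal pair. RPM here and below are reads per 1000000 miRNA reads after TMM (trimmed mean of M values) adjustment of the totals. The luminal markers miR-148a-3p and miR-375-3p summed to 3103 to 4146 RPM in the basal and 23219 to 26358 in the luminal pair. The epithelial miR-200 family arms summed to 188306 to 479277 and 862615 to 915591 RPM, most of it miR-200c-3p (log2 fold change -1.48, edgeR adjusted p = 0.472), and the groups overlapped for each of the other 4 arms. Markers of other cells were also read in both groups. Both endothelial miR-126a arms summed to 34582 to 55099 RPM in the basal and 967 to 10587 in the luminal pair. The 5 smooth muscle and fibroblast arms summed to 1627 to 2592 and 10652 to 13517, and the 2 erythroid arms to 170.5 to 3021 and 207 to 647. Of the 5 smooth muscle and fibroblast arms, edgeR called 2 higher in luminal cells, beside 3.77% of all miRNAs tested, and 0 in basal cells. These were miR-145a-5p (log2 fold change -3.35, edgeR adjusted p = 0.0232) and miR-143-3p (-2.23, 0.0466). In sorted bulk samples, fewer cells of a type and less RNA per cell cannot be told apart. The part of these cells in the results below was not tested.

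None of the members passed the test between basal and luminal cells. Of the 7 listed arms, 5 passed the filter on low counts, and 0 of these 5 had an adjusted p under 0.05 (quasi-likelihood test of edgeR, Benjamini-Hochberg adjusted over 345 miRNAs). At an unadjusted p under 0.05 there were 2, miR-146a-5p and miR-21a-3p. DESeq2 called 1, miR-146a-5p, beside 28 of all 345 miRNAs, 7 with more in basal and 21 with more in luminal cells. Over all 345 miRNAs the edgeR test called 4.35%, made up of 0.58% with more in basal and 3.77% with more in luminal cells, and 15.9% had an unadjusted p under 0.05. The groups did not overlap for 4 of the 5 arms, beside 51.6% of all miRNAs tested. Of these arms, 3 were above in luminal libraries (24.3% of all tested) and 1 in basal libraries (27.2%). For a single value, the smallest p of an exact permutation test of 2 against 2 libraries is 0.333.

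**Figure D1:**
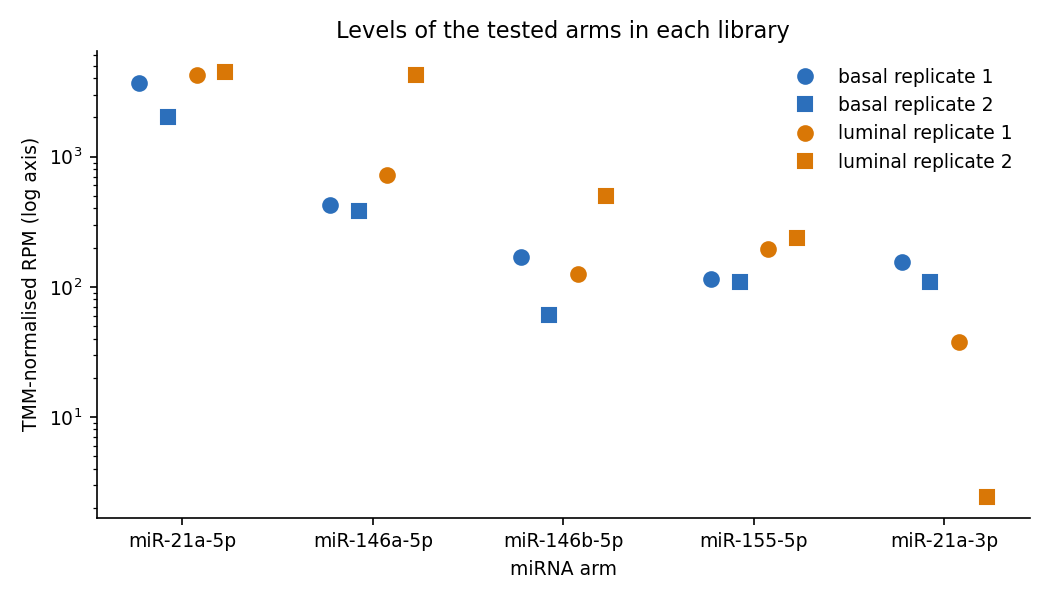
Level of the 5 tested arms in each library, in TMM-normalised RPM on a log axis. Blue points are basal and orange points luminal libraries, circles are replicate 1 and squares replicate 2. For miR-146a-5p, luminal replicate 2 stands at 4205 RPM and the other 3 libraries between 385 and 717, and for miR-21a-3p luminal replicate 2 stands lowest at 2.44 RPM.

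miR-21a-5p, the arm known to repress Pdcd4, was the most abundant member in every library. It had 9908 reads in basal replicate 1 and 6762 in basal replicate 2, and 5547 in luminal replicate 1 and 5499 in luminal replicate 2. In RPM these were 3704 and 2015 for the basal and 4245 and 4472 for the luminal pair. The luminal libraries lay close together, and the gap between the basal libraries was larger than that between basal replicate 1 and the luminal ones. Among the miRNAs of each library it ranked 30 and 40 in basal and 29 and 25 in luminal libraries. The group levels were 2859 ± 1194 and 4359 ± 161 RPM (mean ± SD, n = 2 each). The log2 fold change of basal over luminal was -0.61 with a standard error of 0.60 and a 95% interval from -1.87 to 0.65 (edgeR adjusted p = 0.669), so a change of either sign remained within the error. Leaving out basal replicate 1 gave -1.13, and leaving out basal replicate 2 gave -0.22. It was 0.0472 with library totals alone and 1.66 with scaling to the Cali reads, non-miRNA names that took most of the other reads. These scalings moved the median of all miRNAs to 0.56 and 1.99, and relative to these medians the arm stood at -0.52 and -0.33.

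The opposite arm, miR-21a-3p, had its higher counts in the basal libraries. It had 412 reads in basal replicate 1 and 366 in basal replicate 2, but 49 in luminal replicate 1 and 3 in luminal replicate 2. In RPM the basal pair had 154 and 109 and the luminal pair 37.5 and 2.44. Neither luminal library reached the lower basal value, and the luminal libraries differed from each other far more than the basal ones did. By size, the luminal difference stood at percentile 92.2 among all tested miRNAs and the basal one at 37.1. The log2 fold change was 2.71 (SE 1.08), with a 95% interval from 0.44 to 4.99, which did not pass (edgeR adjusted p = 0.197). It was above 0 in each of the 13 other settings tried, from 1.87 to 5.79, and passed in 2 of them. These were the run without luminal replicate 1 (5.79, adjusted p = 9.54e-04) and the fit with the replicate number as a block (3.53, adjusted p = 0.0494). Without luminal replicate 2, which held only 3 reads, it was 1.87 (adjusted p = 0.407). In any run without 1 library, the group it came from is 1 library that is assumed to vary as the other pair does. The pass without luminal replicate 1 thus rests on the 3 reads of luminal replicate 2. Its spread comes from the basal pair and from pooling over miRNAs.

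Because both arms come from one hairpin, the share of each arm within a library needs no scaling between libraries. The 3p arm took 3.99% of the miR-21a reads of basal replicate 1 (exact 95% binomial interval 3.62 to 4.39) and 5.13% of those of basal replicate 2 (4.63 to 5.67). It took 0.876% in luminal replicate 1 (0.648 to 1.16) and 0.0545% in luminal replicate 2 (0.0112 to 0.159). None of the 4 intervals overlaps another, but they leave out the spread between libraries. They also treat reads as independent molecules, which reads without molecular identifiers need not be, so they may be too narrow. The group means were 4.56% ± 0.808 and 0.465% ± 0.581 (SD, n = 2 each), a difference of 4.10 percentage points (2-sided exact permutation test, p = 0.333, the smallest this design allows). Both basal shares lay above both luminal shares.

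The same measure was taken for the 92 stems with both arms tested, as the log2 ratio of the more to the less abundant arm. This comparison was chosen after the miR-21a values were seen. For miR-21a the ratio of 5p to 3p was 4.59 on the log2 scale in basal replicate 1 and 4.21 in basal replicate 2, against 6.81 in luminal replicate 1 and 10.6 in luminal replicate 2. Its difference, luminal minus basal, was 4.32 with a standard error of 1.45 and a 95% interval from 0.55 to 8.08, the second largest of the 92 in that direction. It did not pass (limma, unadjusted p = 0.0322, adjusted p = 0.710 over 92 stems). In this limma fit to all 4 libraries no stem passed, 5 had an unadjusted p under 0.05, and the median difference over all stems was 0.12. In 16.3% of stems the ratio was higher in both luminal libraries than in both basal ones. Luminal replicate 2 also departed from luminal replicate 1 in other stems. The ratio was 13.7 against 9.27 for miR-191 and 14.5 against 8.90 for miR-10a, but 3.66 against 7.82 for miR-27b. Luminal replicate 2 listed 445 miRNA names, against 547 and 548 in basal replicates 1 and 2 and 573 in luminal replicate 1. Without luminal replicate 2 the miR-21a difference was 2.41. Without luminal replicate 1 it was 6.22, which sets the basal pair against 1 library with 3 reads of the 3p arm. The miR-21a difference was 4.51 and 4.13 without basal replicates 1 and 2. In such runs 1 group is a single library, and limma pools the spread over all stems.

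**Figure D2:**
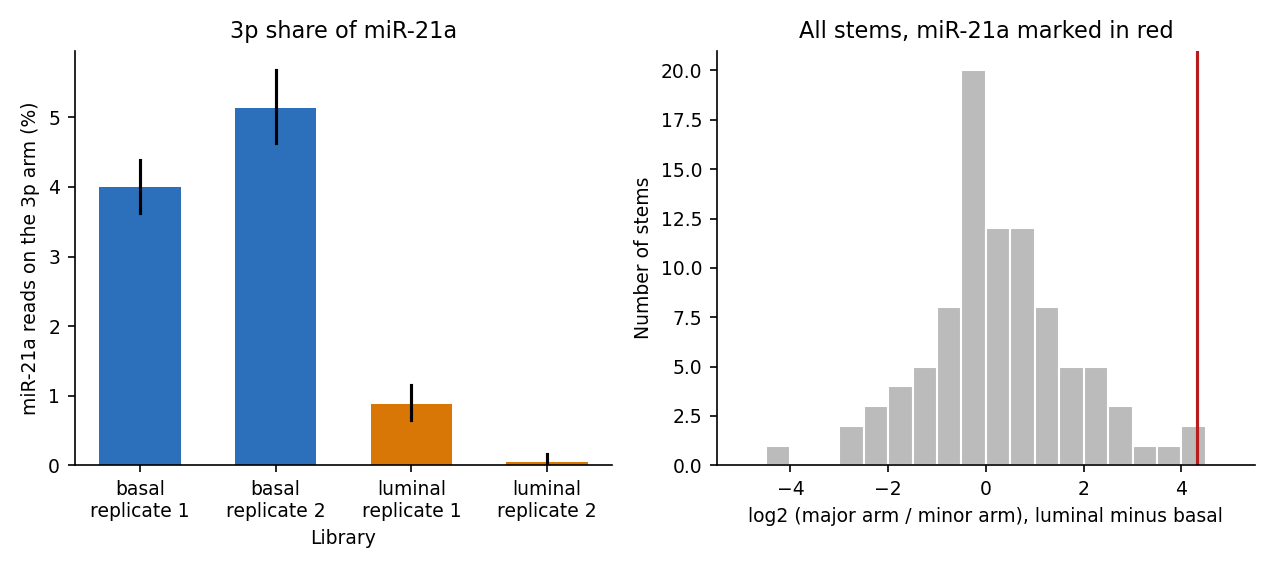
Left, percent of miR-21a reads on the 3p arm in each library, with exact 95% binomial intervals as black lines; basal bars are blue and luminal bars orange. Right, histogram over 92 stems of the log2 ratio of the major to the minor arm, luminal minus basal, with miR-21a marked by the red line at 4.32, at the right edge of the distribution.

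miR-146a-5p, the arm that represses Irak1 and Traf6, was the member nearest to the threshold, and the difference rested on 1 library. It had 1138 and 1291 reads in basal replicates 1 and 2, 937 in luminal replicate 1 and 5171 in luminal replicate 2. In RPM these were 425 and 385 in basal, and 717 and 4205 in luminal libraries. Both luminal libraries were above both basal ones, and luminal replicate 2 stood 5.86-fold above luminal replicate 1. On the log2 scale that is 2.55, at percentile 81.7 by size among all tested miRNAs, whose median absolute difference was 1.02. miR-146a-5p ranked 26 among the miRNAs of luminal replicate 2 and between 69 and 81 in the other libraries. The group levels were 405 ± 28.8 and 2461 ± 2467 RPM (mean ± SD, n = 2 each). The log2 fold change of basal over luminal was -2.60 with a standard error of 0.74 and a 95% interval from -4.16 to -1.04, a 6.08-fold higher fitted level in luminal cells (edgeR adjusted p = 0.0559).

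The log2 fold change of miR-146a-5p was below 0 in each of the 14 other settings tried. It passed in DESeq2 (adjusted p = 0.0137), with no filter on low counts (0.0116), with the replicate block (0.0397) and without luminal replicate 1 (-3.31, 0.00120). In that last run the luminal group is the 1 library that stands highest, and the spread comes from the basal pair and from pooling over miRNAs. Without luminal replicate 2 it was -0.77 (adjusted p = 0.772). With scaling to the Cali reads, which moved the median of all miRNAs to 1.99, it was -0.58 (0.806), or -2.57 relative to that median. Over all settings the adjusted p ranged from 0.00120 to 0.806.

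miR-146b-5p, with the same seed, was less abundant than miR-146a-5p in every library. It had 452 reads in basal replicate 1 and 202 in basal replicate 2, and 165 in luminal replicate 1 and 611 in luminal replicate 2. In RPM these were 169 and 60.2 in basal and 126 and 497 in luminal libraries, so the groups overlapped and luminal replicate 2 was again the highest. The log2 fold change was -1.44 (SE 0.80), with a 95% interval from -3.13 to 0.24 (edgeR adjusted p = 0.384). It was -0.07 without luminal replicate 2, -2.41 without basal replicate 1 and 0.90 with scaling to the Cali reads.

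Summing both names removes the question of how reads that match both were split, provided that each such read was counted once. The sources used here do not say whether it was. The miR-146 5p arms together had 1590 reads in basal replicate 1 and 1493 in basal replicate 2, and 1102 in luminal replicate 1 and 5782 in luminal replicate 2. Their log2 fold change was -2.41 (SE 0.73), with a 95% interval from -3.94 to -0.89 (edgeR adjusted p = 0.0687). For each 100 reads of miR-146a-5p miR-146b-5p had 39.7 in basal replicate 1 and 15.6 in basal replicate 2, against 17.6 in luminal replicate 1 and 11.8 in luminal replicate 2. The groups overlapped in this ratio (2-sided exact permutation test, p = 0.667).

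miR-155-5p, the arm that represses Socs1, was less abundant than miR-21a-5p and miR-146a-5p in every library. Among the miRNAs of each library it ranked 128 and 129 in basal and 113 and 104 in luminal libraries. Libraries of a group differed by at most 1.21-fold. It had 305 reads in basal replicate 1 and 367 in basal replicate 2, and 254 in luminal replicate 1 and 290 in luminal replicate 2. In RPM these were 114 and 109 in basal and 194 and 236 in luminal libraries. Both luminal libraries were above both basal ones, and replicates of a group lay closer to each other than the groups did. The group levels were 112 ± 3.30 and 215 ± 29.3 RPM (mean ± SD, n = 2 each). The log2 fold change was -0.95 (SE 0.71), with a 95% interval from -2.45 to 0.56 (edgeR adjusted p = 0.527). The model pools its estimate of spread over miRNAs, so that error does not come from these 4 values alone. With scaling to the Cali reads the log2 fold change was 1.10.

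The ratios of miR-146a-5p to miR-155-5p and to miR-21a-5p within a library set luminal replicate 2 apart from the other 3. There were 3.73 and 3.52 reads of miR-146a-5p for each read of miR-155-5p in basal replicates 1 and 2, and 3.69 in luminal replicate 1. In luminal replicate 2 there were 17.8. Against miR-21a-5p, miR-146a-5p had 11.5 reads per 100 in basal replicate 1, 19.1 in basal replicate 2, 16.9 in luminal replicate 1 and 94.0 in luminal replicate 2. For both ratios luminal replicate 1 lay within the basal range, and the groups overlapped (2-sided exact permutation tests, p = 0.667 each). Per 100 reads of miR-21a-5p, miR-155-5p had 3.08 reads in basal replicate 1, 5.43 in basal replicate 2, 4.58 in luminal replicate 1 and 5.27 in luminal replicate 2 (p = 1 by the same exact test). The groups overlapped in all 4 ratios tested, and this design could not have given any of them a p under 0.333.

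The remaining 3p arms were at or near 0. miR-155-3p had 6 reads in basal replicate 1, 0 in basal replicate 2, 0 in luminal replicate 1 and 1 in luminal replicate 2. The 6 reads were 1.93% of the miR-155 reads of that library (exact 95% binomial interval 0.711 to 4.15). miR-146a-3p had 0 reads in basal replicate 1 and 4 in basal replicate 2, and 1 in luminal replicate 1 and 0 in luminal replicate 2. The count of 0 in luminal replicate 2 allows a share of up to 0.0580% of its miR-146a reads, taking 3 reads as the limit. miR-146b-3p had 0 reads, which allows from 0.491% of the miR-146b reads in luminal replicate 2 to 1.82% in luminal replicate 1. At this depth no difference between cell types was detectable for these arms.

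Leukocytes are a known source of miR-146a and miR-155, and leukocyte markers were read in these cells although the lineage-negative gate is meant to remove leukocytes. All 5 listed arms of the leukocyte list were present in every library, and 0 of the 5 were called by edgeR, beside 4.35% of all miRNAs tested, with 0 at an unadjusted p under 0.05 and 0 called in DESeq2. The summed level was 4042 RPM in basal replicate 1 and 7878 in basal replicate 2, against 3573 in luminal replicate 1 and 4395 in luminal replicate 2. In the first 3 of these libraries most of it was miR-150-5p, a lymphocyte miRNA, at 2832 to 6294 RPM. In luminal replicate 2 its level was 1181 RPM, the lowest of the 4.

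The other 4 leukocyte arms were highest in luminal replicate 2, as miR-146a-5p was. miR-223-3p, a miRNA of neutrophils and other myeloid cells, had 333 RPM there and 7.10 to 63.5 in the other libraries. miR-142-3p, found across blood cell types, had 208 RPM there and 27.7 to 48.9 elsewhere. miR-142-5p had 189 RPM against 13.5 to 59.6, and miR-342-3p 2485 against 558 to 1412. Such a peak was not particular to the leukocyte list. The luminal marker miR-375-3p (2971 RPM) and miR-145a-5p of the smooth muscle and fibroblast list (9694 RPM) were also highest in luminal replicate 2. miR-148a-3p, miR-143-3p and the miR-126a arms were not. The share of all miRNAs that were highest in that library was not counted. miR-155-5p stood 1.21-fold higher and miR-146a-5p 5.86-fold higher in luminal replicate 2 than in luminal replicate 1. The part of leukocyte RNA in the level of either arm was not tested.

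**Figure D3:**
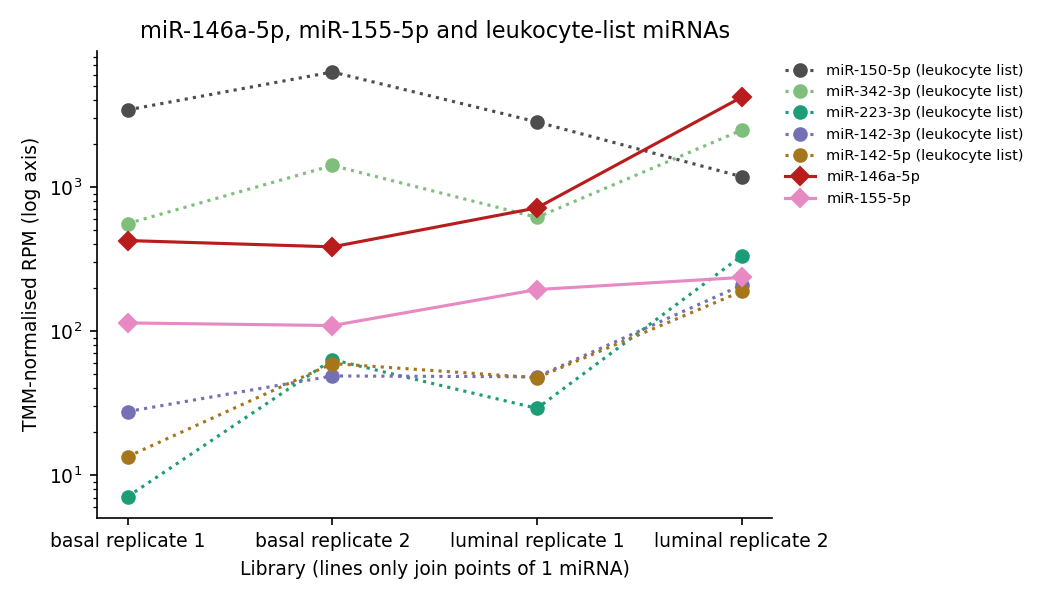
TMM-normalised RPM, on a log axis, of miR-146a-5p and miR-155-5p (diamonds) and of the 5 leukocyte-list arms (circles) in each library; lines only join the points of 1 miRNA. In luminal replicate 2, miR-146a-5p, miR-223-3p, both miR-142 arms and miR-342-3p are at their highest and miR-150-5p at its lowest.

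The miRNAs whose pattern over the 4 libraries was nearest to that of each main arm were found by Euclidean distance of centred log2 RPM among 174 other miRNAs with a mean of at least 50 RPM. With 4 libraries, small distances are easily met, and they are given as a description. For miR-146a-5p the nearest was miR-142-3p, of the leukocyte list, at a distance of 1.004. It was followed by miR-34a-5p at 1.04 and the luminal marker miR-375-3p at 1.10. For miR-146b-5p they were miR-425-5p at 0.74, miR-210-3p at 0.78 and miR-1839-3p at 0.88. miR-155-5p had closer neighbours, miR-3102-3p at 0.09, miR-362-5p at 0.27 and miR-214-3p, of the smooth muscle and fibroblast list, at 0.31. Those of miR-21a-5p were miR-149-5p at 0.40, miR-345-5p at 0.45 and miR-378a-3p at 0.47.

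Among other miRNAs linked to NF-kB and Toll-like receptor signalling, a single call was made. Of the 13 on the list, 12 were listed and 11 tested, 0 were called higher in basal and 1 in luminal cells, beside 0.58% and 3.77% of all miRNAs tested. The call was miR-9-5p, induced through NF-kB in human monocytes and abundant in neural cells (edgeR log2 fold change -5.29, adjusted p = 0.0128). It stood at 4.14 ± 4.26 RPM in the basal and 166 ± 131 RPM in the luminal pair (mean ± SD over 2). It had only 3 and 24 reads in basal replicates 1 and 2, against 338 and 91 in luminal replicates 1 and 2. The few basal reads limit its fold change. The median log2 fold change of the list was 0.33, beside -0.01 over all 345 tested, with 7 above 0 and 4 below. The 3 most abundant were miR-125b-5p, miR-125a-5p and let-7i-5p, with log2 fold changes of 0.33, 0.32 and 0.39 (edgeR adjusted p = 0.878, 0.863 and 0.790). miR-125b-5p, known to repress tumour necrosis factor, stood at 40413 and 32239 RPM on average in basal and luminal libraries, above every member described here.

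**Figure D4:**
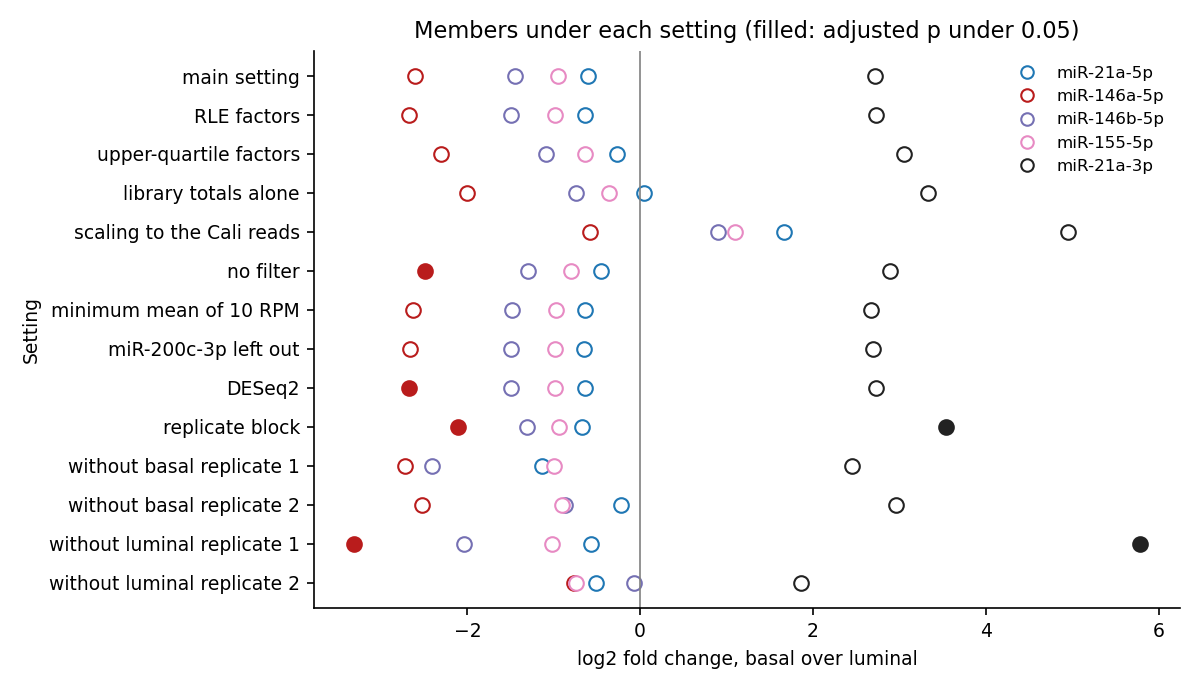
log2 fold change of basal over luminal for the 5 tested arms under each setting; filled points have an adjusted p under 0.05. miR-146a-5p stays below 0 and miR-21a-3p above 0 in every setting shown, while the other 3 arms cross to above 0 with scaling to the Cali reads, as does miR-21a-5p with library totals alone.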

How the data were processed

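Small RNAs of 2 basal and 2 luminal samples were counted by the authors. The values deposited are raw counts of reads per miRNA name, per the file headers, as 1 list for each library. The table's name points to BLAST, with version and settings not given in the sources used here. Unlisted names were taken as 0 reads. The 4 names that are no miRNA and the total at the foot of each list were left out, and names other than miRNAs took 29.5% to 62.4% of listed reads. The test was that of edgeR 4.0.16 under R 4.3.3 (TMM factors, filterByExpr with a minimum of 10 reads and a total of 15, quasi-likelihood test, 2-sided, Benjamini-Hochberg adjustment, threshold 0.05), with cell type as the only term. Standard errors are the log2 fold change over the square root of F. Arm ratios were tested with limma 3.58.1 with a pseudocount of 0.5. DESeq2 1.42.0, other scalings, other filters, a replicate block and runs without 1 library were alternatives. SciPy 1.17.1 gave exact tests and intervals.

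Named miRNAs were all members, those past the threshold and the 3 most abundant of the NF-kB list, the marker lists (leukocyte, endothelial, smooth muscle and fibroblast, erythroid, basal, luminal and epithelial) and 3 nearest patterns for each main arm. The members and lists were chosen with earlier results of these data known. The leukocyte list holds 7 names, 2 of which are other spellings of the miR-142 arms.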

Additional observations from a re-analysis of the deposited data

How the results depend on the processing

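No member was called in edgeR with the settings given above. The count was 1 with no filter on low counts, 1 in DESeq2 and 2 with the replicate block, and lay between 0 and 2 when 1 library was left out. The 15 calls over all miRNAs became 21 with no filter, 2 with library totals alone, 3 with scaling to the Cali reads, 5 with a minimum mean of 10 RPM, 28 in DESeq2 and 23 with the replicate block, and ranged from 9 to 61 without 1 library, the latter without luminal replicate 1. Scaling to the Cali reads moved the median of all miRNAs to 1.99 and turned the log2 fold changes of miR-21a-5p to 1.66, miR-146b-5p to 0.90 and miR-155-5p to 1.10, which are -0.33, -1.08 and -0.89 relative to that median, as miR-146a-5p is at -2.57. Library totals alone moved the median to 0.56 and miR-21a-5p to 0.0472, or -0.52 relative to it. Upper-quartile factors moved the median to 0.31 and turned no member. Replicate numbers are shared between groups, but the labels tie them to no animal or day, and same-numbered libraries' deviations correlated at 0.153 over 345 miRNAs. The sum of miR-21a-5p with miR-21b and miR-21c was not run, as neither was listed. The 3 reads of miR-21a-3p in luminal replicate 2 limit its fold change and arm share.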
